A study of Homo sapiens with 4 samples.

Results

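The comparison described here set HT-29 cells against NCM460 cells after both had been kept for 24 h with 100 μg/mL SCS, a chondroitin sulfate from sturgeon, and covered all genes. HT-29 is an established line from a human colorectal adenocarcinoma, and NCM460 is the line that the study used as normal colon cells. The 2 libraries of the comparison were the HT-29 library with SCS and the NCM460 library with SCS, out of 4 in the series. The other 2 came from the same lines without SCS and served as a separate pair of the same lines. Each condition had 1 library, so the line difference under SCS has no replicate check and no p-value is given for it. The labels give both lines the same share of fetal bovine serum, whereas the methods give NCM460 a larger share than HT-29, so line and serum cannot be told apart. Each is 1 cell line, so a difference between them is a difference between these cultures and not between cancer and normal colon in general. Of 18650 loci with at least 1 fragment in the series, 13050 had a mean of at least 1 CPM (fragments scaled to a common library size) over both SCS libraries and were compared.

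Colon epithelial cells carry simple keratins, cadherin and claudin junctions, and a set of brush border and mucus genes that they switch on as they differentiate. Chondroitin sulfate is a sulfated glycosaminoglycan chain that cells build on proteoglycan core proteins and that matrix receptors such as PTPRS and CD44 can bind. Cells in culture also differ by how far they divide and by the stress and lipid programs they run, which are read here through the replication machinery, sterol synthesis, the targets of the transcription factors ATF4 and NRF2, and the interferon response.

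The libraries held between 1156568 and 1654764 fragments. The mitochondrial genome took 13.8% of the fragments in HT-29 with SCS, 46.3% in NCM460 with SCS, 35.8% in HT-29 without SCS and 62.3% in NCM460 without SCS. This left 1383424 nuclear fragments in HT-29 with SCS and 621582 in NCM460 with SCS, and CPM were therefore scaled by TMM factors. A floor of 3 fragments corresponded to 1.25 CPM in HT-29 with SCS and 2.77 CPM in NCM460 with SCS, so low genes were resolved better in HT-29. Differences are given as log2 fold changes of HT-29 over NCM460 with 95% Clopper-Pearson intervals, which cover counting error only.

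Markers of colon epithelium were present in part in both lines. KRT8 had 3518 fragments in HT-29 with SCS and 1117 in NCM460 with SCS, a log2 difference of 0.50 (0.41 to 0.60) that was not called. EPCAM had 605 and 126, a difference of 1.10 (0.83 to 1.40). KRT19 went the other way with 375 and 1150, a difference of -2.76 (-2.94 to -2.60). Of 12 markers, 8 were over 3 fragments in HT-29 and 6 in NCM460. CDX1, GPA33 and CDH17 were at 0 in both SCS libraries. CDX2, the intestinal master regulator, was at 0 fragments in both HT-29 libraries and at 14 and 12 fragments in NCM460 without and with SCS. VIL1, LGALS4 and KRT20 were at 0 in both NCM460 libraries and present in HT-29. The CDX2 values thus go against the label of the HT-29 libraries as intestinal cells and leave those labels in doubt, while VIL1, LGALS4 and KRT20 fall on the side the labels give. The identity of the lines was not tested further, and every direction given here rests on the labels. The marker lists of other cell types were low, apart from SFN. All 4 immune markers were at 0 in the 4 libraries. The 5 fibroblast markers summed to 3.33 CPM in HT-29 and 25.9 CPM in NCM460 with SCS. Of 5 squamous markers only SFN was found, with 228 and 113 fragments. Its log2 difference was -0.14 (-0.47 to 0.20) and it was not called.

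With SCS, 3159 loci were called higher in HT-29 and 2923 lower, at a difference over 1.5-fold with an interval that excluded 0. These were 24.2% and 22.4% of the 13050 loci compared, which is the background for the counts of gene groups. At a difference over 4-fold, 1011 loci were higher (7.75%) and 1078 lower (8.26%). The median log2 difference of all loci was 0.05, with an interquartile range from -0.89 to 0.93.

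The untreated libraries of the same lines gave 3212 higher and 2932 lower calls among 12691 loci, 25.3% and 23.1%. Past 4-fold the shares were 11.6% and 9.66%. No library was in both pairs. The loci called higher in both numbered 1835, which is 58.1% of the calls with SCS and 57.1% of those without. For lower calls the number was 1677, or 57.4% and 57.2%. A call in the opposite direction without SCS was found for 106 of the loci higher with SCS and for 170 of those lower. Across 11956 loci compared in both pairs the log2 differences had a Spearman correlation of 0.63, given as a description, since the loci share libraries. The difference fell with transcript GC content in both pairs, with a rank correlation of -0.16 with SCS and -0.51 without. Its part in the values of single genes was not tested.

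The line difference shared by both pairs was tested over the 4 libraries with edgeR's quasi-likelihood test with Benjamini-Hochberg adjustment, which had 1 residual degree of freedom. Of 12942 loci, 1036 were higher (8.0%) and 1063 lower (8.21%) in HT-29 at an adjusted p below 0.05. DESeq2 called 330 and 541 of 10182 loci. This test does not speak of the difference under SCS alone.

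The 12 genes furthest above NCM460 in HT-29 with SCS were led by SQLE, LCN2 and S100P, and NCM460 had at most 3 fragments of any of them with or without SCS. LCN2, which encodes the siderophore-binding lipocalin of inflamed epithelium (ENSG00000148346, chr9:128149071-128153455), had 694 fragments in HT-29 with SCS, 65 in HT-29 without, and 0 in both NCM460 libraries. This put it at least 104-fold higher in HT-29 against a floor of 3 fragments. S100P, a calcium-binding protein, had 645 and 220 fragments in HT-29 with and without SCS and 0 in NCM460, at least 96.8-fold higher. Both HT-29 libraries stood above both NCM460 libraries for each of these genes.

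SQLE, squalene monooxygenase of sterol synthesis, had 1999 fragments in HT-29 with SCS and 553 without, against 0 in both NCM460 libraries, and was at least 299.9-fold higher. LGALS4, a galectin of the gut lining (chr19:38801671-38813364), had 464 and 138 fragments in HT-29 and 0 in NCM460, at least 69.6-fold higher. AGR2, a disulfide isomerase needed for mucin production (chr7:16791811-16833433), had 462 and 45 fragments and was at least 69.3-fold higher. SQLE, LGALS4 and AGR2 were each higher in the HT-29 library with SCS than in the one without.

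Among the remaining leaders, LYZ (lysozyme) was at least 52.8-fold higher, KRT20 (a keratin of differentiated colon cells) at least 45.9-fold and SERPINA1 (alpha-1 antitrypsin) at least 63.9-fold, all from 0 fragments in NCM460 with SCS. LYZ went the other way from LCN2 within HT-29, with 352 fragments with SCS and 603 without. The other 4 had between 1 and 3 fragments in NCM460 with SCS, which leaves wide intervals. FAM129A, a stress-induced gene, had a log2 difference of 7.00 (5.75 to 13.5), and GCNT3, a mucin-type glycosyltransferase, had 6.83 (5.59 to 13.4). AKR1C1, an aldo-keto reductase whose locus holds 3 genes that could not be separated, had 6.86 (5.85 to 9.68), and LIPG, endothelial lipase, had 6.45 (5.20 to 12.99). By edgeR's quasi-likelihood test with Benjamini-Hochberg adjustment over the 4 libraries, the adjusted p of the 12 leaders ran from 8.46e-23 for SQLE to 5.20e-10 for FAM129A. The 12 were chosen as the largest differences between the SCS libraries, which edgeR and DESeq2 both use here. Small values follow in part from that choice and are no separate support. By DESeq2, 5 of the 12 passed and 7 did not, with adjusted p between 0.0738 for SQLE and 0.269 for AGR2. The 7 were SQLE, LCN2, S100P, LGALS4, AGR2, LYZ and KRT20, the leaders at 0 in both NCM460 libraries.

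The 12 genes furthest below NCM460 were led by LGALS1, PTPRS and DKK1. LGALS1, a galectin of mesenchymal and many cultured cells (ENSG00000100097, chr22:37675608-37679806), had 2 fragments in each HT-29 library, 301 in NCM460 with SCS and 391 in NCM460 without, a log2 difference of -7.06 (-11.4 to -6.52). PTPRS, a receptor phosphatase that binds chondroitin sulfate chains (ENSG00000105426, chr19:5158495-5340803), had 0 and 1 fragments in HT-29 with and without SCS and 173 and 261 in NCM460. HT-29 was at least 128-fold lower in PTPRS with SCS. In both genes the HT-29 and NCM460 libraries were separated with and without SCS.

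DKK1, a secreted WNT antagonist, had 3 and 2 fragments in HT-29 with and without SCS and 344 and 111 in NCM460, a log2 difference of -6.99 (-10.3 to -6.43). AKAP12, a kinase-anchoring scaffold, was the only one of the 12 above 5 fragments in HT-29, at 52 with and 47 without SCS, against 2266 and 799 in NCM460, a difference of -6.52 (-7.02 to -6.20). SPARC, COL6A2 and COL12A1, all matrix proteins, and PTPRU and IGFBP2 were at 0 in both HT-29 libraries and at least 63.0- to 80.7-fold lower with SCS. NOTCH3, at 0 with SCS and 5 fragments without, was at least 83.7-fold lower. CDH3, P-cadherin, had 1 fragment against 139, and WNT16 had 2 against 159. The adjusted p of these 12, by edgeR's quasi-likelihood test with Benjamini-Hochberg adjustment, was at most 5.59e-13. These 12 too were chosen on the SCS libraries that the test includes, so small values are no separate support. By DESeq2, 7 passed and 5 did not. The 5 were PTPRU, SPARC, COL6A2, IGFBP2 and COL12A1, those at 0 in both HT-29 libraries, with adjusted p between 0.0692 and 0.121.

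**Figure D1:**
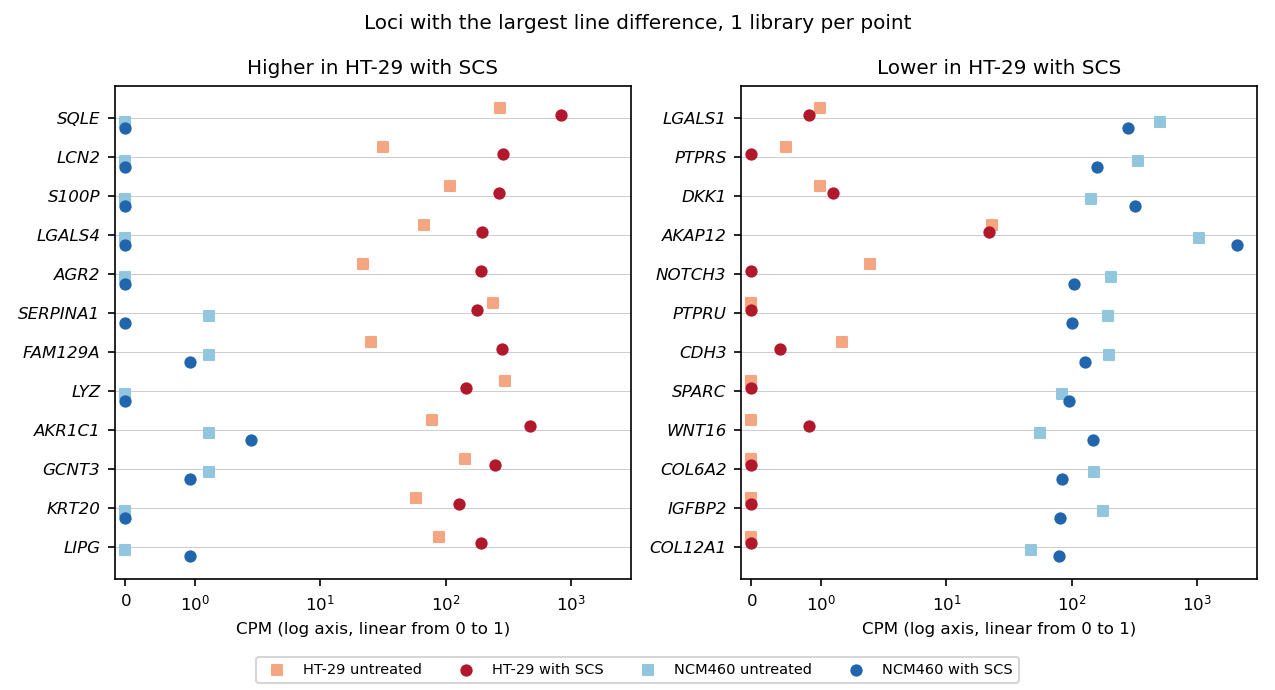
CPM of the 12 loci furthest above and the 12 furthest below NCM460 in HT-29 with SCS, 1 point per library, on a log axis that is linear from 0 to 1. In each row the HT-29 points lie on one side of the NCM460 points with and without SCS.

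Genes of differentiated intestine followed the same order. Of 17 enterocyte and brush border loci compared, 11 were called higher in HT-29 with SCS and 2 lower, with a median log2 difference of 3.15, or 1.85 when genes at 0 in one library were set to their bound. Over the 22 loci of the list with at least 1 fragment, the median stood 0.93 above that of all loci, against 3.10 over the 17, with the same numbers of calls. CEACAM1, a cell adhesion molecule, had 103 fragments in HT-29 with SCS against 0, and CA12, a carbonic anhydrase, had 392 against 1, a difference of 6.23 (4.98 to 12.8). VIL1, villin of the microvillus core, had 24 fragments with SCS and 138 without in HT-29, and 0 in NCM460. ESPN, an actin-bundling protein, went the other way with 1 fragment in HT-29 and 48 in NCM460, a difference of -4.76 (-12.1 to -4.19). The list as a whole was thinly covered, since 22 of its 44 genes were at 0 in HT-29 with SCS.

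Of 14 mucin, trefoil and goblet cell loci, 8 were higher and 1 lower. SPINK1, a secreted trypsin inhibitor, had 102 fragments in HT-29 with SCS and 0 in NCM460. MUC3A was the lower one, with 7 fragments in HT-29 and 23 in NCM460, a log2 difference of -2.43 (-4.33 to -1.60). MUC1, in a locus of 3 genes, had 79 and 33 fragments and a difference of 0.10 (-0.50 to 0.74).

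Intestinal transcription factors were split. Of 23 loci, 9 were higher in HT-29, 4 lower and 10 not called. EHF, an ETS factor of epithelia, had 195 fragments in HT-29 with SCS and 0 in NCM460, at least 29.3-fold higher. KLF5, a factor of dividing crypt cells, had 519 and 37 fragments, a difference of 2.61 (2.18 to 3.18). FOXA2 had 24 fragments in HT-29 with SCS and 0 in NCM460, while CDX2, TFCP2L1 and SOX9 were among the lower ones. SOX9, a factor of crypt progenitors, had 98 fragments in HT-29 with SCS and 186 in NCM460, a difference of -2.04 (-2.44 to -1.72).

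Junction genes were mostly higher in HT-29. Of 37 loci, 20 were called higher and 2 lower, with a median of 0.95. CLDN1, a claudin, had 49 fragments in HT-29 with SCS against 0 in NCM460. TJP1, the scaffold ZO-1, had 731 and 49 fragments, a difference of 2.71 (2.33 to 3.19). CDH1, E-cadherin, differed by 1.25 (0.95 to 1.58) with SCS and by 0.08 without. The 2 lower members were DSP, the desmosomal plakin, at -1.07 (-1.36 to -0.80), and TJP3 at -0.89 (-1.45 to -0.38). Among the keratins KRT18, in a locus of 2 genes, was higher in HT-29 by 1.69 (1.54 to 1.86) and KRT19 lower, at -2.76 (-2.94 to -2.60).

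HOX genes, which keep the positional identity of a cell, were called higher in HT-29 for 8 of 16 loci and lower for 2. HOXB9 had 248 fragments in HT-29 with SCS and 13 in NCM460, a difference of 2.98 (2.30 to 4.03). HOXB13, the most posterior of its cluster, had 3 and 13 fragments.

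Mesenchymal genes lay below NCM460. Of 27 loci, 1 was called higher in HT-29 and 14 lower, with a median of -1.80, or -1.67 with genes at 0 set to their bound. On the deposited FPKM the median stood at -1.15 relative to all loci, against -1.86 here. CALD1 (caldesmon) and MYL9 (a myosin light chain), both of contractile cells, were at 0 in HT-29 with SCS and at 49 and 33 fragments in NCM460. TPM2, a tropomyosin, had 29 and 221 fragments, a difference of -3.95 (-4.69 to -3.52). The one higher gene was TGFBI, with 24 fragments in HT-29 and 0 in NCM460. VIM, which defines most mesenchymal cells, was low in both lines, at 0 and 4 fragments with SCS.

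WNT target and crypt stem cell loci were lower for 11 of 20 and higher for 2. BAMBI, a TGF-beta pseudoreceptor and WNT target, had 0 fragments in HT-29 and 33 in NCM460 with SCS. EPHB2, a receptor of crypt base cells, had 2 and 28 fragments, a difference of -3.69 (-8.07 to -2.97). AXIN2, the feedback inhibitor of the pathway, in a locus of 3 genes, was not called, at 0.57 (-0.34 to 1.68). PROX1 was the highest, with 97 fragments in HT-29 and 0 in NCM460.

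Among genes that make and carry chondroitin sulfate, those called with SCS were more often lower in HT-29. Of 34 loci of chondroitin sulfate synthesis and breakdown, 7 were called higher in HT-29 with SCS, 13 lower and 14 not called. The median was -0.51, with an interval from -1.32 to 0.30. On the deposited FPKM the median stood at -0.14 relative to all loci, against -0.56 here. The same loci without SCS gave 4 higher and 11 lower, with a median of -0.03. After the GC trend was subtracted, 6 were higher and 13 lower with SCS, and 8 and 8 without. XYLT1, a xylosyltransferase that starts the chain on its core protein, had 0 fragments in HT-29 and 11 in NCM460. The sulfotransferases CHST11 and CHST15 were also at 0 in HT-29 and had 14 and 31 fragments in NCM460, and CHST15 was at least 22.96-fold lower. All 3 genes were at 0 in HT-29 without SCS too, where NCM460 had between 10 and 38 fragments.

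CHPF, a chain-polymerizing factor, had 218 fragments in HT-29 and 247 in NCM460 with SCS, a difference of -1.32 (-1.60 to -1.06). CHSY1, the chondroitin synthase, had 30 and 33, a difference of -1.21 (-2.05 to -0.53). Lysosomal enzymes were among those higher in HT-29: HEXA, in a locus of 4 genes, differed by 1.73 (1.27 to 2.30) and IDUA, alpha-L-iduronidase, by 2.31 (0.75 to 8.74), the latter from 23 fragments against 1.

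Of 21 loci for proteoglycan cores and glycosaminoglycan receptors, 9 were lower in HT-29 and 4 higher, with a median of -1.24, or -1.44 at the bounds. Relative to all loci it stood at -1.29, at -0.75 on the deposited FPKM and at -0.85 when the minimum mean was raised to 5 CPM. The same loci without SCS gave 9 lower and 4 higher, with a median of 0, or -0.49 after the GC trend was subtracted. VCAN (versican), a chondroitin sulfate proteoglycan, had 0 and 31 fragments, and CSPG4 had 3 and 22, a difference of -3.10 (-6.41 to -2.29). SDC3, a syndecan, had 6 and 71 fragments, a difference of -4.15 (-6.21 to -3.52). The higher ones were AGRN (agrin), in a locus of 2 genes, at 2.69 (2.42 to 3.02), RTN4R at 1.51 (0.86 to 2.39), SDC1 and APLP2. CD44, the hyaluronan receptor, had 308 fragments in HT-29 and 202 in NCM460 with SCS, a difference of -0.54 (-0.80 to -0.28), and without SCS it differed by 0.42. In the test over 4 libraries, 6 loci of the synthesis list and 6 of the receptor list were lower in HT-29, and 0 and 1 were higher, by edgeR's quasi-likelihood test with Benjamini-Hochberg adjustment. In edgeR 34 and 19 loci of the lists had an adjusted p. Its background at an adjusted p under 0.05 is 8.21% lower and 8.0% higher. DESeq2 gave an adjusted p for 29 and 17 loci and called 4 and 6 lower and 0 and 1 higher. Its background is 541 lower and 330 higher of 10182 loci.

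Sterol genes were higher in HT-29 under SCS nearly throughout. Of 25 loci of sterol synthesis and uptake, 21 were called higher and 0 lower, against a background of 24.2% and 22.4%, and the median was 1.64. The same loci without SCS gave 12 higher and 3 lower, with a median of 0.73. HMGCS1, the enzyme that makes HMG-CoA, had 1564 fragments in HT-29 and 113 in NCM460 with SCS and 335 and 8 without. The HT-29 libraries were higher in both pairs, with differences of 2.62 (2.36 to 2.93) and 3.84. LSS, lanosterol synthase, had 363 and 17 fragments with SCS and 102 and 23 without, so that it differed by 3.17 (2.56 to 4.06) with SCS and 0.73 without. The loci that were not called included PMVK, SREBF2 and FDFT1.

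ATF4 targets, which cells switch on when amino acids are short or the endoplasmic reticulum is stressed, were higher in HT-29 under SCS for 24 of 30 loci and lower for 2. Without SCS the counts were 8 higher and 9 lower, and the median was -0.11 without and 1.88 with SCS. After the GC trend was subtracted the medians were 0.14 and 1.84. TRIB3, a pseudokinase of this response, had 893 fragments in HT-29 and 25 in NCM460 with SCS, and 179 and 50 without. The difference was 3.94 (3.44 to 4.64) with SCS and 0.44 without. DDIT3, the factor CHOP, had 195 and 8 fragments with SCS and 22 and 6 without, a difference of 3.25 (2.45 to 4.69) against 0.42.

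PPP1R15A, the phosphatase subunit GADD34, differed by 3.75 (3.33 to 4.31) with SCS and by 1.24 without. NUPR1, a small chromatin protein induced by stress, had 49 fragments in HT-29 with SCS and 0 in the other 3 libraries. SESN2, a sestrin that restrains mTORC1, had 188 and 17 fragments with SCS and 28 and 22 without, a difference of 2.23 (1.60 to 3.12) against -0.98. ATF4 itself had 703 and 209 fragments with SCS, a difference of 0.60 (0.37 to 0.83). The 2 lower members were STC2, with 0 and 37 fragments, and PHGDH, the first enzyme of serine synthesis, with 60 and 68.

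NRF2 targets, which handle electrophiles, glutathione and iron, were higher for 23 of 37 loci and lower for 6, with a median of 1.33. SLC7A11, the cystine importer that is on this list and on that of ATF4 (ENSG00000151012, chr4:138164097-138242349), had 1007 fragments in HT-29 and 16 in NCM460 with SCS and 159 and 4 without, a difference of 4.71 (4.12 to 5.64) and 3.62. FTH1 and FTL, the ferritin chains, had 21320 and 15243 fragments in HT-29 with SCS and 1257 and 1083 in NCM460. Their differences were 2.93 (2.85 to 3.02) and 2.66 (2.57 to 2.75) with SCS, and 1.28 and 0.83 without. GCLC, the catalytic subunit of glutathione synthesis, in a locus of 2 genes, differed by 3.19 (2.79 to 3.70). NQO1, a quinone reductase often used as a readout of NRF2, did not reach 1.5-fold, at 0.34 (0.13 to 0.56). GSTP1 was lower in HT-29, with 240 and 419 fragments.

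Interferon-stimulated genes were higher for 23 of 32 loci and lower for 3, with a median of 2.56, or 2.38 at the bounds, against 13 higher and 4 lower without SCS. SAMD9, an antiviral factor, had 177 fragments in HT-29 and 2 in NCM460 with SCS and 42 and 0 without. OAS1, which senses double-stranded RNA, had 157 and 3 with SCS and 33 and 0 without. BST2, tetherin, had 93 and 0 with SCS and 86 and 1 without. In each of these genes both HT-29 libraries were above both NCM460 libraries. IFITM3, a membrane protein that blocks viral entry, was the lowest of the list, with 37 fragments in HT-29 and 182 in NCM460, a difference of -3.35 (-4.00 to -2.93).

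MHC class I and antigen processing genes were higher for 12 of 20 loci and lower for 1. B2M, the light chain of class I, differed by 1.69 (1.40 to 2.02), and NLRC5, the class I transactivator, by 1.87 (0.98 to 3.30). HLA-B was the lower one, in a locus of 3 genes.

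The promoters of the members of these lists were searched for the motif each list is known by. RefSeq sequence of the 250 bases before each gene start (GRCh38.p14) was searched on both strands in 27305 promoters. The interferon-stimulated response element, which is GAAA followed after 2 free bases by another GAAA, was found in 14 of the 23 promoters of interferon-stimulated genes that could be matched, 60.9%, and in 3.07% of all promoters. The 14 had a median difference of 2.57 and the other 9 of 2.59. The stretches shown are those of BST2 and SAMD9, which had the largest differences among the called members with the motif, and capitals mark the motif.
BST2, chr19:17405700-17405799, minus strand: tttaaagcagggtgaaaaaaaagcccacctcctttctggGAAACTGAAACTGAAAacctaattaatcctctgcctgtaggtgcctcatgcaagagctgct
SAMD9, chr7:93118061-93118160, minus strand: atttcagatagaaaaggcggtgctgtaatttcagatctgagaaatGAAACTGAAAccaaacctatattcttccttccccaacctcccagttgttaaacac

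The C/EBP-ATF response element was searched as TGATGNAA and was found in 4 of 25 promoters of ATF4 targets, 16%, and in 3.19% of all promoters. The 4 genes were ATF3, ASNS, CHAC1 and HERPUD1, and all 4 were called higher in HT-29 with SCS. Of the 21 without the element, 16 were called higher and 2 lower. The core of the antioxidant response element, TGACNNNGC, was found in 7 of 27 promoters of NRF2 targets, 25.9%, and in 11.035% of all promoters. Of the 7 genes, 6 were called higher and 1 lower, and of the 20 without it 11 were higher and 3 lower. The sterol regulatory element, searched as TCACNCCAC, was found in 1 of 18 promoters of sterol genes, that of SREBF2, and in 0.875% of all promoters. SREBF2 was not called, and of the 17 without the element 16 were called higher. Stretches of the members with the largest differences that hold the motifs read as follows, again with the motif in capitals.
CHAC1, chr15:40953221-40953320, plus strand: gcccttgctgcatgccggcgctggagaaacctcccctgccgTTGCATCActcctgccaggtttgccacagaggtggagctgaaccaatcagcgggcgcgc
HERPUD1, chr16:56931920-56932019, plus strand: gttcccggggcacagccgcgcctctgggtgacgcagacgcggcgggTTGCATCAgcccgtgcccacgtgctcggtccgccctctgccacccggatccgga
GPX2, chr14:64942814-64942913, minus strand: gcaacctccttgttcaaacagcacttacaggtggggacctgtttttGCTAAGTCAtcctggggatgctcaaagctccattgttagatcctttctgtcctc
GCLM, chr1:93909431-93909530, minus strand: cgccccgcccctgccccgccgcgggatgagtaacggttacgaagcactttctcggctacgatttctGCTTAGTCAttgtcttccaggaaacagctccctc
CHAC1, which degrades glutathione, had 80 fragments in HT-29 and 6 in NCM460 with SCS and 13 and 10 without. GCLM, a subunit of glutathione synthesis, had 205 and 10 with SCS and 51 and 4 without. GPX2, the gut glutathione peroxidase, had 181 fragments in HT-29 with SCS and 383 without, and 0 in NCM460.

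**Figure D2:**
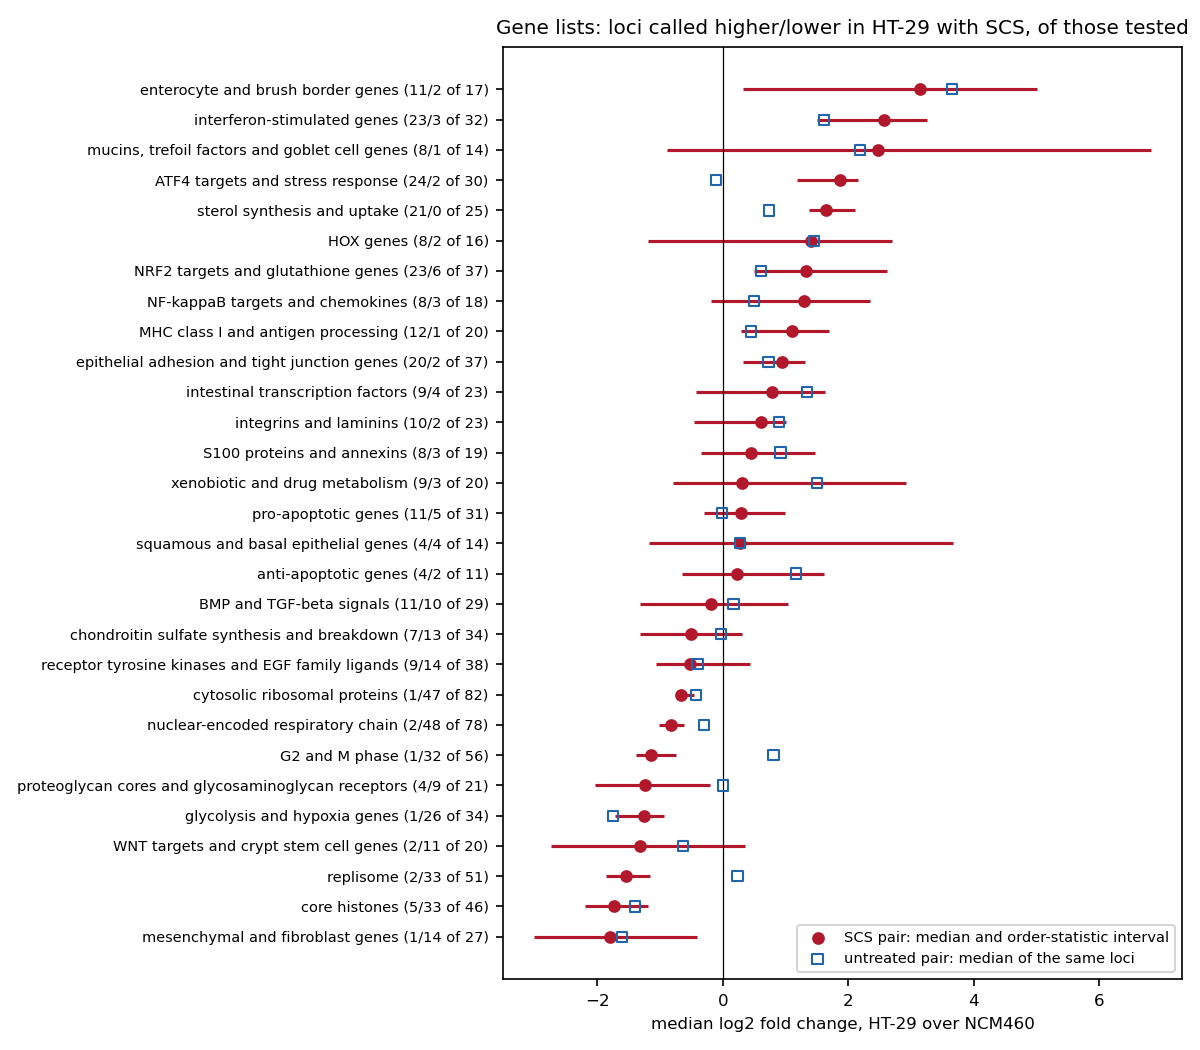
Median log2 fold change of HT-29 over NCM460 for gene lists with at least 11 loci, with SCS (filled, with the order-statistic interval of the median) and without SCS (open). A list of that size that is not reported here is left out. Numbers in parentheses are loci called higher and lower with SCS, of those compared. The replisome list is at -1.55 with SCS and 0.24 without, and the ATF4 list at 1.88 and -0.11 (1.84 and 0.14 after the GC trend was subtracted).

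Replication and mitosis genes were lower in HT-29 than in NCM460 under SCS. Of 51 replisome loci, 33 were called lower in HT-29 and 2 higher, against a background of 22.4% lower, and the median was -1.55. Without SCS, 9 were lower and 15 higher, with a median of 0.24. The median with SCS was -1.58 after the GC trend was subtracted, and that without SCS was 0.26.

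All 6 subunits of the MCM2-7 helicase were lower in HT-29. MCM4 had 26 fragments in HT-29 and 115 in NCM460 with SCS, and 301 and 47 without. Its difference was -3.15 (-3.97 to -2.67) with SCS and 1.27 without. MCM5 had 14 and 82 with SCS and 106 and 93 without, a difference of -3.44 (-4.64 to -2.87) against -1.19. In MCM4 the HT-29 library without SCS was the highest of the 4 and the one with SCS the lowest.

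PCNA, the sliding clamp, had 38 fragments in HT-29 and 91 in NCM460 with SCS, and 216 and 55 without, a difference of -2.32 (-3.00 to -1.85) against 0.57. LIG1, the ligase of lagging strand synthesis, differed by -1.55 (-2.32 to -0.95), and POLD1, the catalytic subunit of polymerase delta, in a locus of 3 genes, by -2.002 (-2.78 to -1.46). The higher members were RFC1, a clamp loader subunit, at 0.88 (0.33 to 1.52), and POLD4, in a locus of 3 genes. TYMS, which supplies thymidylate for DNA, was among the 5 loci whose gap widened most, with 3 and 71 fragments with SCS and 98 and 65 without, a difference of -4.73 (-8.03 to -4.11) against -0.79.

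The G2 and M phase list had 32 of 56 loci lower in HT-29 and 1 higher, with a median of -1.14. Without SCS it had 12 lower and 25 higher, with a median of 0.81, or 0.07 after the GC trend was subtracted. PBK, a mitotic kinase, had 4 and 32 fragments with SCS, a difference of -3.40 (-6.11 to -2.66), and AURKB, the kinase of the chromosomal passenger complex, had 11 and 50. MKI67, the proliferation marker Ki-67, had 143 fragments in HT-29 and 159 in NCM460 with SCS, and 523 and 136 without. Its difference was -1.29 (-1.64 to -0.97) against 0.55. PLK1, a kinase of mitotic entry, differed by -1.53 (-2.22 to -0.99) with SCS and by -1.60 without. TOP2A, which untangles chromosomes, was not called, at 0.08 (-0.39 to 0.57).

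Core histones were lower for 33 of 46 loci and higher for 5, with a median of -1.74, and without SCS 34 were lower and 9 higher. HIST1H3B had 17 fragments in HT-29 and 85 in NCM460 with SCS, and HIST1H2BG had 74 and 0. CCND1, cyclin D1, had 65 and 203 fragments with SCS and 178 and 135 without, a difference of -2.74 (-3.22 to -2.38) against -0.98. CDKN1A, the inhibitor p21, had 279 fragments in HT-29 with SCS, 25 in HT-29 without, 246 in NCM460 with SCS and 187 without, so that it was lower in HT-29, at -0.96 (-1.22 to -0.72) with SCS and -4.16 without. The HT-29 library without SCS was the lowest of the 4.

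An E2F site, searched as TTTNGCGC in the 250 bases before the start, was found in 9 of 44 replisome promoters, 20.5%, and in 1.54% of all promoters. Of the 9 genes 6 were called lower in HT-29 with SCS and 1 higher, and of the 35 without the site 22 were lower and 1 higher. The median difference was -1.44 with the site and -1.45 without it. The stretches of POLE, the catalytic subunit of polymerase epsilon, and of MCM6 are shown, with the site in capitals.
POLE, chr12:132687343-132687442, minus strand: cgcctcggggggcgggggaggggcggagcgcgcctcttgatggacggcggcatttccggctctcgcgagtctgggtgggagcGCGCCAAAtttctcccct
MCM6, chr2:135876476-135876575, minus strand: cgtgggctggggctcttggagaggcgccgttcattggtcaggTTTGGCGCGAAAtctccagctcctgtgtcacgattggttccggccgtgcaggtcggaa
The G2 and M phase list was searched for the cell cycle genes homology region, TTTGAA. It was found in 23 of 45 promoters, 51.1%, and in 13.6% of all promoters. Of the 23 genes 11 were called lower, and of the 22 without it 13 were lower. The median difference was -0.89 with it and -1.30 without it. A match is a run of letters and not a measured site.

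**Figure D3:**
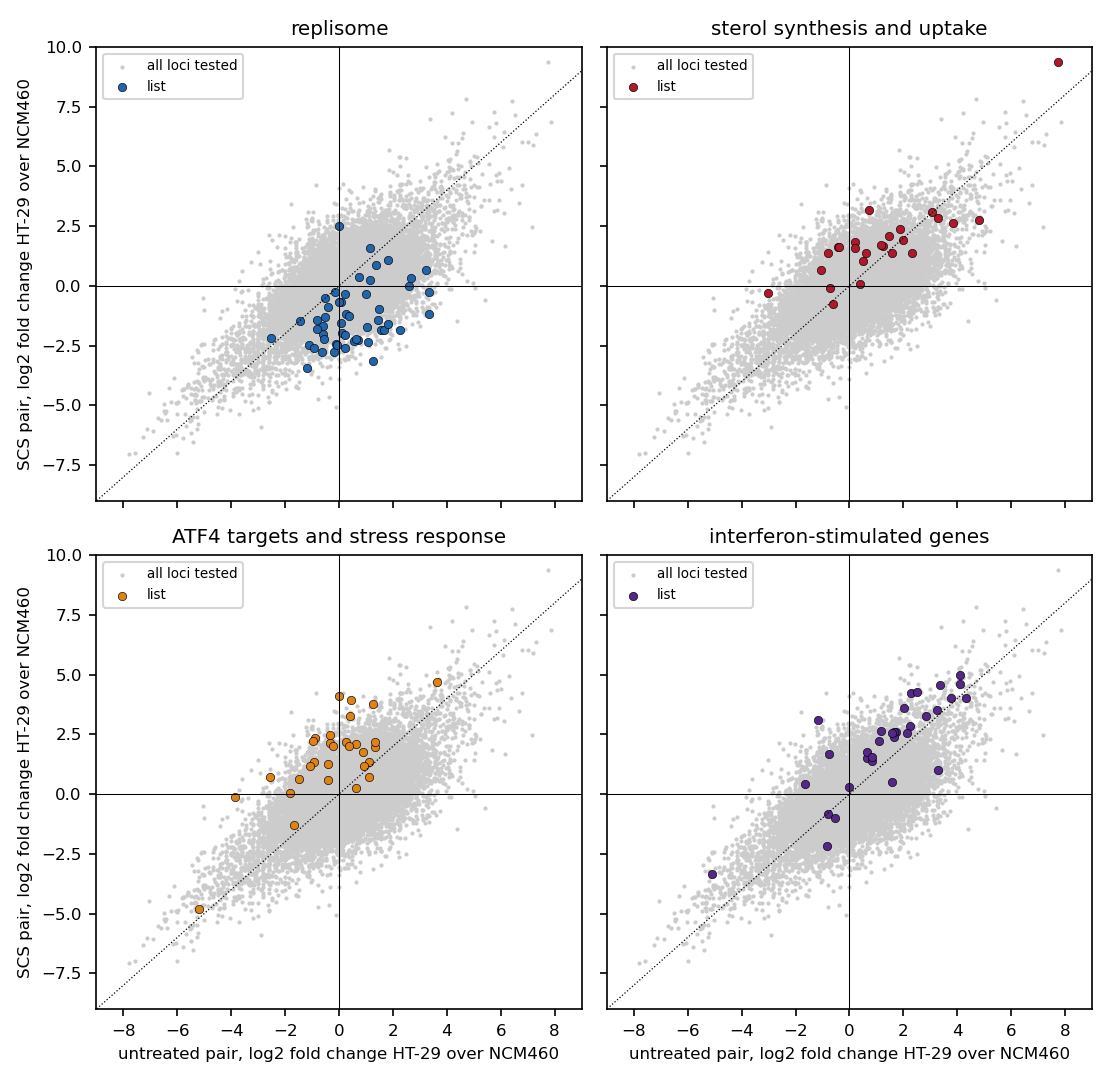
Log2 fold change of HT-29 over NCM460 with SCS (vertical) against that without SCS (horizontal) for all loci compared (grey) and the members of 4 lists (coloured), with the dotted line at equal values. Replisome loci lie mostly below the line and ATF4 targets mostly above it.

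Genes of energy metabolism were lower in HT-29. Of 34 glycolysis and hypoxia loci, 26 were lower with SCS and 1 higher, with a median of -1.26, and without SCS the counts were 26 and 2. GAPDH had 1734 fragments in HT-29 and 3491 in NCM460 with SCS, a difference of -2.16 (-2.25 to -2.08), and -2.65 without. LDHA, lactate dehydrogenase A, had 200 and 606 with SCS and 761 and 489 without, a difference of -2.73 (-2.99 to -2.52) against -0.75. NDRG1, a hypoxia-induced gene, had 656 and 415 fragments with SCS and 50 and 663 without, and its difference of -5.05 without SCS stood at -0.49 (-0.67 to -0.31) with it. VEGFA was the only one called higher, at 2.16 (1.86 to 2.52).

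Of 78 loci for nuclear-encoded respiratory chain subunits, 48 were lower in HT-29 with SCS and 2 higher, with a median of -0.83. Without SCS, 28 were lower and 14 higher. Of 82 cytosolic ribosomal proteins, 47 were lower and 1 higher, with a median of -0.67 (interval -0.75 to -0.46), while RPL23 was higher at 0.69 (0.54 to 0.86). Subtracting a trend on transcript length moved the medians of both lists nearer to 0. The 4 loci of the mitochondrial genome were lower, by -2.60 for the locus of MT-ND1 and -1.21 for that of MT-ATP6, beside the mitochondrial shares given above.

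Apoptosis genes did not all differ the same way between the lines. Of 31 pro-apoptotic loci, 11 were higher in HT-29 with SCS and 5 lower, with a median of 0.28, or -0.06 at the bounds. The same loci without SCS gave 4 higher and 4 lower, with a median of -0.02. Of 11 anti-apoptotic loci 4 were higher and 2 lower with SCS, and 5 and 2 without. The pro-apoptotic median with SCS stood at 0.23 relative to all loci, and at 0.42 with the GC trend subtracted. With that trend subtracted, 9 pro-apoptotic loci were higher and 6 lower with SCS, and 6 and 3 without. On the deposited FPKM, 10 were higher and 12 lower with SCS. CASP4, an inflammatory caspase, had 189 fragments in HT-29 with SCS, 53 without and 0 in both NCM460 libraries. BAX, a pore-forming protein of mitochondria, had 78 fragments in HT-29 with SCS and 11 in NCM460 with SCS, a difference of 1.56 (0.76 to 2.73). BIRC5, survivin, was lower at -2.37 (-3.21 to -1.82), and XIAP higher at 2.45 (1.79 to 3.41). BCL2 had 2 fragments in NCM460 with SCS and 0 in the other 3 libraries, which is under the floor.

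Of 38 receptor tyrosine kinases and their ligands of the EGF family, 9 were higher and 14 lower in HT-29. FGFR4 had 3 and 58 fragments with SCS, a difference of -4.45 (-7.74 to -3.81), and EPHB6 had 198 and 5, a difference of 3.83 (2.91 to 5.79). Of 29 BMP and TGF-beta loci, 11 were higher and 10 lower. SKIL, a brake on SMAD signaling, had 302 and 10 fragments, a difference of 3.59 (2.87 to 4.84), and ID3, a target of BMP signals, had 4 and 60, a difference of -4.27 (-6.98 to -3.63). Integrins and laminins were higher for 10 of 23 loci and lower for 2. ITGB6 had 129 fragments in HT-29 and 0 in NCM460 with SCS, at least 19.4-fold higher, and ITGA5, the fibronectin receptor, had 0 and 50, at least 37.0-fold lower.

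The line gap differed most between the pairs for a few loci. SNORD3A, the small nucleolar RNA U3, had 116 fragments in HT-29 and 1780 in NCM460 with SCS and 1260 and 523 without, a difference of -5.06 (-5.38 to -4.82) against -0.12. SLFN5, an interferon-responsive gene, had 954 and 7 with SCS and 92 and 9 without, a difference of 5.69 (4.89 to 7.26) against 1.85. SYTL2, a vesicle tethering protein, had 5 and 90 with SCS and 36 and 18 without, a difference of -4.66 (-6.98 to -4.05) against -0.37. In SNORD3A and SYTL2 the NCM460 library with SCS was the highest of the 4, and in SLFN5 the HT-29 library with SCS.

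Other gaps narrowed or turned. CLDN2, a pore-forming claudin, had 2 fragments in each SCS library, 222 in HT-29 without SCS and 1 in NCM460 without. GDA, guanine deaminase, had 23 and 11 fragments with SCS, a difference of -0.08 (-1.18 to 1.10), and 170 and 1 without. LZTS3, a leucine zipper protein, had 181 and 3 with SCS and 19 and 14 without. SLC6A9, a glycine transporter, had 77 and 2 with SCS and 5 and 9 without, so that it was higher in HT-29 with SCS by 3.42 (2.21 to 7.19) and lower without, at -1.79.

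Position along the genome was not used to call any locus. Only the choice of promoter stretches to show passed over chromosomes 8 and Y. The chromosomes with the lowest median log2 differences with SCS were 8, at -0.54 (-0.69 to -0.31, 429 loci), and 22, at -0.52 (-0.80 to -0.29, 320 loci). The highest were 13, at 0.54 (0.36 to 0.67, 229 loci), 7, at 0.43 (0.31 to 0.61, 647 loci), and 15, at 0.42 (0.30 to 0.56, 432 loci). On chromosome 8 the first 20 Mb had a median of -1.36 (-1.68 to -0.89, 39 loci) and the next 20 Mb one of -1.41 (-1.62 to -0.99, 90 loci), the lowest of the 20 Mb windows with at least 20 loci. Without SCS these windows stood at -0.24 and -0.996. The whole of chromosome 8 then had a median of 0 (-0.21 to 0.09) and chromosome 22 one of -0.68. The medians of chromosomes 13, 7 and 15 without SCS were 1.32, 0.51 and 0.82. Chromosome 13 stood 0.49 above the median of all loci with SCS and 0.30 above it after the GC trend was subtracted.

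**Figure D4:**
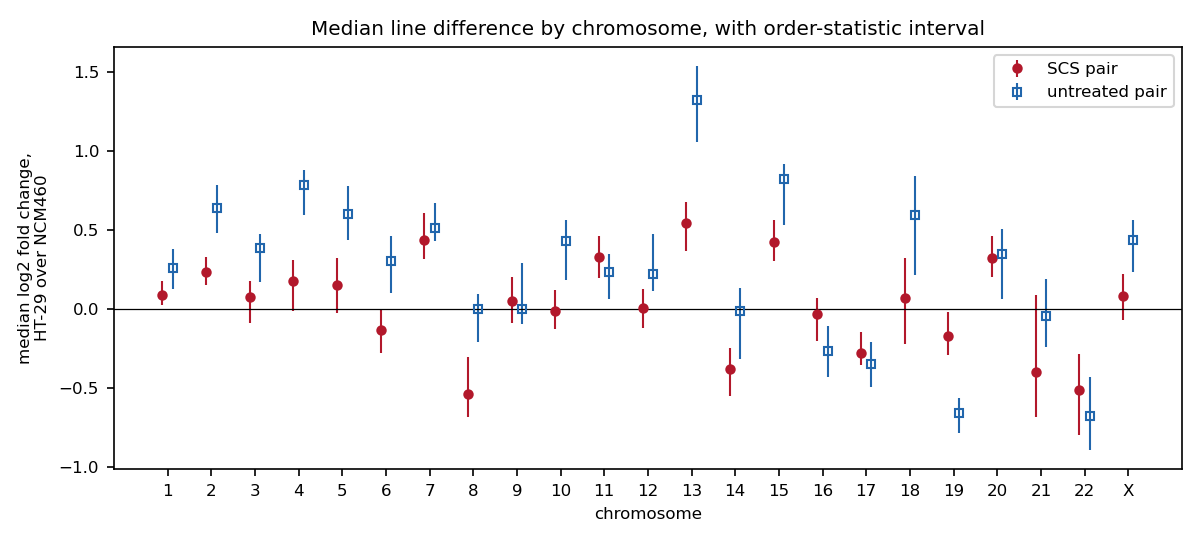
Median log2 fold change of HT-29 over NCM460 by chromosome with SCS (filled) and without SCS (open), with the order-statistic interval of the median. Chromosome 13 is the highest in both pairs, and chromosome 8 is the lowest with SCS.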

How the data were processed

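RNA of HT-29 and NCM460 cells, untreated or kept 24 h with 100 μg/mL SCS, was extracted with TRIzol per the methods, made into libraries with an NEBNext Ultra kit and sequenced as paired ends, 1 library per condition. The labels do not say whether cultures were separate. The submitters' processing notes name bcl2fastq 2.17.1.14, cutadapt 1.9.1, Bowtie2, HTSeq 0.6.1 and hg19, and the methods name Cuffdiff. The coordinates deposited are those of GRCh38: 93.6% of the loci found in GENCODE release 29 have the same start and end.

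The authors deposited a count column, a signal of fragment counts scaled by a factor of each library, and an FPKM column, fragments per kilobase scaled by library size. The design had assumed counts. Dividing each column by the worth of 1 fragment (0.686, 0.577, 2.04 and 1.33 in HT-29 without and with SCS and NCM460 without and with SCS) gave whole numbers, within 0.1 fragment, for 99.9% to 100% of values above 0, and these reads were used. Rows without a gene, 26 in number, held at most 0.0942% of the fragments and were left out. Rows of overlapping genes with identical values were merged, which gave 18650 loci, 1812 of them with several genes whose values are uncertain.

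Fragments were scaled by TMM factors from edgeR 4.0.16 (1.24, 1.50, 0.578 and 0.935 in the same order), with a prior count of 2. A locus was called when it differed by more than 1.5-fold and the 95% interval excluded 0. The quasi-likelihood test took line and SCS as terms over all 4 libraries. DESeq2 1.42.0 was the alternative. Promoter sequence came from RefSeq, GRCh38.p14. Scripts were tested on simulated data.

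The members and lists were chosen with earlier results of these data known. Named genes are the 12 largest differences each way at a mean of at least 10 CPM, both extremes of every list at 5 CPM, the markers, 12 genes of the study's interest, and the 5 largest widenings and narrowings of the gap. Other list members were named after their values were seen. Some genes that these rules name are not reported here.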

Additional observations from a re-analysis of the deposited data

Results flagged for a closer look

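Among the genes named by rule and reported here, SLC6A9 and SESN2 had calls in opposite directions in the 2 pairs of libraries. They are not alone in this. An opposite call without SCS was found for 106 of the loci higher with SCS and 170 of those lower. The change was not tested, since each condition has 1 library. SLC6A9 had 77 fragments in HT-29 and 2 in NCM460 with SCS and 5 and 9 without, so that the log2 gap changed by 5.21 from the untreated to the SCS pair. SESN2 had 188 and 17 with SCS and 28 and 22 without, a change of 3.21. In both genes the HT-29 library with SCS was the highest of the 4 in CPM, and NCM460 had at most 22 fragments.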

How the results depend on the processing

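The counts of calls moved with the scaling, with the unit and with the test. With total fragments only, without a correction for the mitochondrial share, 5345 loci were higher and 1643 lower in HT-29 with SCS, 2005 of the higher ones past 4-fold, and the median of all loci moved from 0.05 to 0.63. Of the calls 76.5% were then higher, against 51.9%. On the deposited FPKM with a pseudocount of 1, without counting intervals, 5077 loci were lower, 577 were higher past 4-fold, 38.1% of calls were higher and the median was -0.26. Lists and chromosomes were therefore compared relative to the median of all loci. On FPKM the replisome then stood at -1.15, chromosome 2 at 0.0616, 13 at 0.29, 15 at 0.20, 19 at -0.00595 and 22 at -0.30. With the length trend subtracted, the respiratory chain stood at -0.67 and the ribosomal proteins at -0.44. With the GC trend subtracted, chromosome 13 stood at 0.30, 16 at 0.0349 and 19, reversed, at 0.0369. Chromosome 13 stood at 0.30 over all loci with a fragment, and chromosome 2 at 0.30 after thinning. Of 825 list and chromosome values under the alternatives, 812 stayed within the interval of the main value. That is a loose criterion for short lists, whose intervals are wide, such as -2.76 to 6.66 for the 7 simple epithelial keratins. The enterocyte list counted as within its interval although it moved from 3.10 to 0.93 over all loci with a fragment. DESeq2 called 330 loci higher and 541 lower in the line difference over 4 libraries, against 1036 and 1063 by edgeR. Of 1717 values of named genes, 1679 kept their call, 22 lost it and 15 gained one. HLA-DOB turned to -0.14 on FPKM. Subtracting the trend on expression and leaving out loci with several genes were chosen after seeing the data. The cause of these moves was not tested. No paired analysis was possible because each condition has 1 library, and no library could be left out within a pair. Depth limits the low genes, most of all in NCM460.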

Other observations

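Some groups outside the main comparisons also differed between the SCS libraries. Of 20 loci of xenobiotic and drug metabolism, 9 were called higher in HT-29 and 3 lower, led by CYP3A5, a steroid and drug hydroxylase, with 112 fragments in HT-29 and 0 in NCM460. ABCC2, a canalicular exporter, had 1 and 28 fragments and was the lowest. Of 18 loci of NF-kappaB targets and chemokines, 8 were higher and 3 lower, and CXCL16 was the lowest, with 9 and 22 fragments. Of 6 neural and neuroendocrine loci 5 were lower in HT-29, among them SYT1, a synaptic vesicle protein, with 0 and 30 fragments. MAGEB2, a cancer-testis antigen, had 66 fragments in NCM460 with SCS, 43 without and 0 in both HT-29 libraries.

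Of 2852 loci with at least 100 fragments in HT-29 with SCS, 29 were at 0 in NCM460 with SCS and 24 at 0 in both NCM460 libraries. In the other direction, 4 of 834 loci were at 0 in HT-29 with SCS, and 2 in both HT-29 libraries.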
